A study of Mus musculus with 9 samples.

Results

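Interleukins and interleukin receptors were followed in lumbar dorsal root ganglia of mice given cisplatin, oxaliplatin or vehicle. Members are all genes whose symbol starts with Il and a digit, 82 of the 38926 genes in the count files. They comprise 36 genes of secreted interleukins, 41 of receptor chains and 4 of antagonists or soluble inhibitors. The remaining one is Il4i1, which encodes an L-amino acid oxidase and carries the name because IL-4 induces it. Il22ra2, which encodes a soluble IL-22 binding protein, is counted with the receptor chains and not with the soluble inhibitors. Wild-type male C57BL/6 mice aged 8 to 10 weeks received vehicle, or cisplatin or oxaliplatin injected into the paw to a cumulative 40 µg. RNA from the L3, L4 and L5 ganglia of the treated side, pooled from 4 animals, made each library, and every group had 3 libraries. Pools count as replicates here, so variation between single animals was not measured.

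Interleukins are secreted signals that immune, glial and stromal cells use to call and instruct one another, and sensory neurons carry receptors for several of them. IL-1 and IL-17 family receptors signal through adaptor proteins, TRAF and TAK1 complexes to NF-kB. Most other interleukin receptors pair cytokine-specific chains with shared chains, such as gp130 (Il6st), the common gamma chain (Il2rg) or the IL-10 receptor beta chain (Il10rb), and signal through JAK kinases and STAT factors. In the ganglion, IL-1 beta and IL-6 are known for sensitizing pain-sensing neurons, and the IL-31 receptor marks a class of itch neurons.

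Reads assigned to genes numbered 22819185 to 38808509 per library. The floor of 3 counts in a library lay between 0.0711 and 0.188 CPM. CPM is the count scaled for library size with TMM factors, and the floor covers counting error only. Among uniquely aligned reads, 26.8, 47.7 and 26.2% fell outside genes in the vehicle libraries against 16.6 to 19.1% in the 6 drug libraries, so this property cannot be told apart from treatment. Vehicle library 2 also stood apart in its scaling factor, 0.70 against 0.96 or more elsewhere. General neuron markers, 6 in number, summed to between 6695 and 6884 CPM in vehicle, 6100 and 6822 CPM in cisplatin and 6328 and 6667 CPM in oxaliplatin libraries. For 5 myelinating Schwann cell markers the sums were 3460 to 4248, 4777 to 5940 and 4500 to 4765 CPM, so that every drug library lay above every vehicle library.

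Receptor genes were detected far more often than ligand genes, with detection set at 3 or more counts in at least 3 libraries. Of 41 receptor chains 40 were detected, against 19 of 36 ligands and 2 of 4 antagonists, 62 members in all. Leaving out any 1 library gave 61 or 62. The only undetected receptor was Il11ra2, a near-copy of the IL-11 receptor gene Il11ra1, at 0 counts in all 9 libraries. Undetected ligands were the T helper cytokines Il2, Il3, Il9, Il13, Il17a, Il17f, Il22 and Il31, and also Il1a, Il1f6, Il1f8, Il10, Il12b, Il17c, Il20, Il24 and Il27. Il27 reached the highest count of them, 5 in a library, followed by Il1a and Il12b at 4. Undetected antagonists were Il1f5 and Il1f10. Of the 20 undetected genes, 10 had no read in any library. A count of 0 allows up to 3 reads, so these transcripts may be present below 0.0711 to 0.188 CPM. That bound does not hold for Il11ra2, since reads that align to it and to Il11ra1 alike were assigned to no gene.

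A further 14 detected members had too few reads to pass the expression filter and took no part in the test. They are the ligands Il4, Il11, Il12a, Il17b, Il19, Il21 and Il23a and the receptor chains Il1rapl2, Il5ra, Il9r, Il12rb2, Il20ra, Il22ra1 and Il23r. Il11, a gp130 cytokine, had 2, 1 and 2 counts in vehicle libraries 1 to 3, 6, 6 and 6 with cisplatin and 8, 10 and 5 with oxaliplatin. Its groups did not overlap, yet no call was made: under a filter of 3 counts in 3 libraries the log2 difference was 1.18 for cisplatin (edgeR adjusted p = 0.156) and 1.43 for oxaliplatin (adjusted p = 0.0581). Il4 ranged from 0 to 13 counts with its highest value in oxaliplatin library 1, and the other members of this set lay between 0 and 15 counts.

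Per kilobase of exon, the gp130 gene Il6st was the most abundant member by a wide margin. Its vehicle level was 68.2 CPM per kb, and it took 68.8 to 73.0% of all reads on members in vehicle libraries, 60.4 to 65.8% in cisplatin libraries and 63.0 to 66.3% in oxaliplatin libraries. Next in the vehicle order came Il34, a ligand of the CSF-1 receptor, at 9.39 CPM per kb, Il10rb at 8.26, the IL-4 and IL-13 receptor chain Il4ra at 7.51, Il31ra at 4.63 and Il13ra1 at 4.32. The vehicle values of Il34 overlapped those of Il10rb, those of Il10rb overlapped those of Il4ra, and those of Il31ra overlapped those of Il13ra1. Behind them stood Il16, Il11ra1, Il18, Il33, Il17rc and Il17d, between 3.43 and 2.04 CPM per kb. The inflammatory ligands Il1b and Il6 were far lower, Il1b at 0.338 CPM per kb and Il6 at 0.0883.

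**Figure D1:**
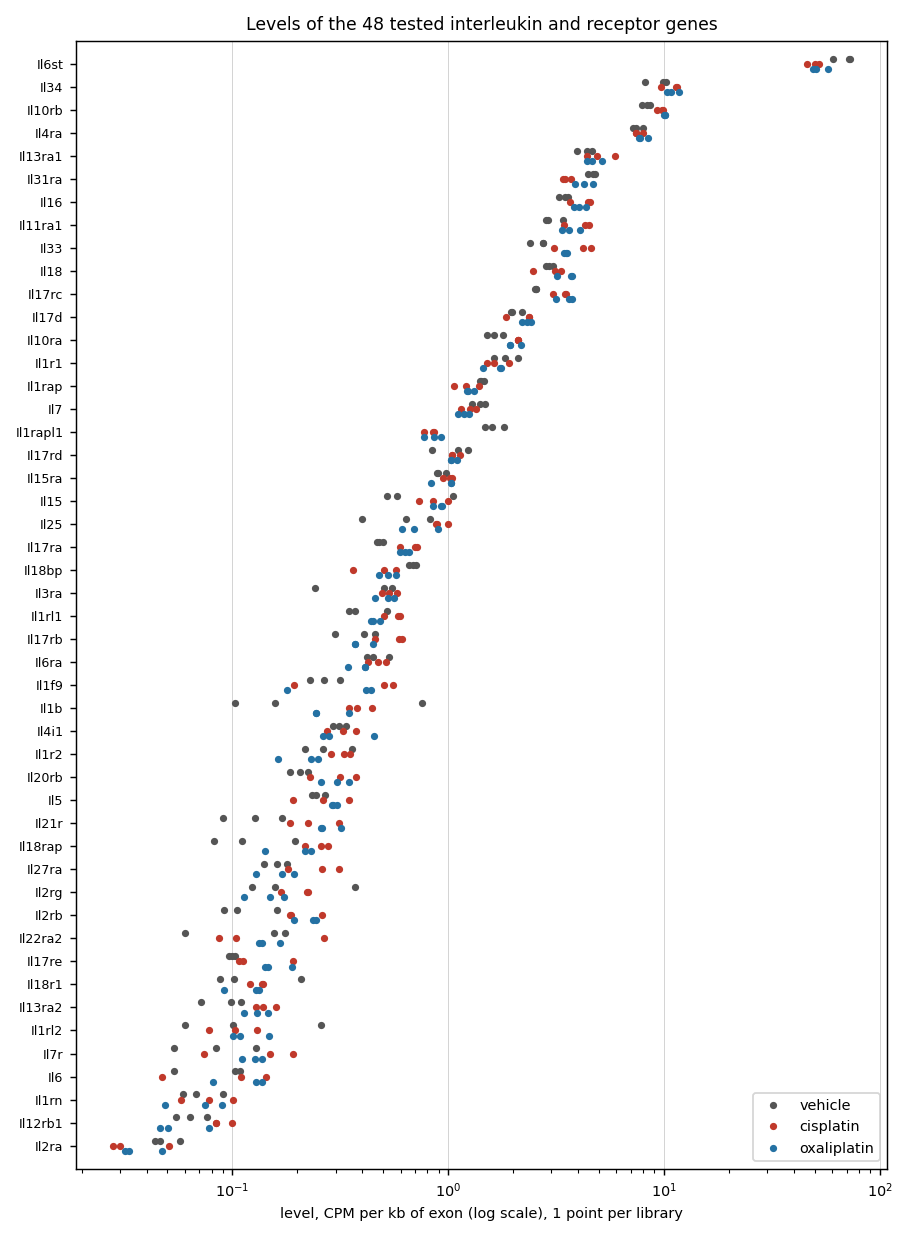
Level of each of the 48 tested members in each library, in CPM per kb of exon on a log axis, with vehicle in grey, cisplatin in red and oxaliplatin in blue and genes ordered by mean level. Il6st stands alone at the top, and the ligands are spread from Il34 near the top to Il6 near the bottom.

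In cisplatin-treated mice 12 of the 48 tested members were higher than in vehicle and 4 were lower, so that 33.3% were called where 38.7% of all 17348 tested genes were. A call is an adjusted p under 0.05 from edgeR's quasi-likelihood test, adjusted by Benjamini-Hochberg over all tested genes, and every adjusted p below is of this kind unless another is named. The share of members called is thus near that of any genes. More members were called higher than lower, whereas of all tested genes 15.8% were called higher and 22.9% lower. The median log2 change was 0.23 over the tested members and 0.0031 over all genes.

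In oxaliplatin-treated mice 8 members were higher and 2 lower, 20.8% of the 48, where 41.6% of all genes were called, 17.5% higher and 24.1% lower. The median log2 change was 0.18 over members and 0.0034 over all genes. The vehicle libraries serve in both comparisons, so the drugs' values below are given side by side and are not independent. Cisplatin values did not overlap with vehicle for 22 of the 48 members, where 48% of all genes did not overlap; 17 members lay above vehicle and 5 below, against 21.3 and 26.7% of all genes. For oxaliplatin 21 members did not overlap, 15 above and 6 below, against 50.5% of all genes, 23.1% above and 27.4% below. Single changes were small: a call at or above 2-fold was made for Il18rap with cisplatin and Il21r with oxaliplatin, and for 3.84 and 3.83% of all genes.

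These counts lean on scaling and on single libraries. Scaling to library totals alone, which moves the median of all genes to 0.29 and 0.30, gave 20 members higher and 1 lower for cisplatin, and 20 and 1 for oxaliplatin. It added cisplatin calls of Il13ra1, Il15, Il1f9, Il20rb, Il25, Il27ra, Il34 and Il3ra and ended those of Il18bp, Il31ra and Il6st. For oxaliplatin it added Il11ra1, Il13ra1, Il15, Il17d, Il17re, Il18, Il18rap, Il1rl1, Il20rb, Il34, Il3ra and Il4ra and ended Il6st. Cisplatin calls fell to 10 without vehicle library 1 or without vehicle library 3, and oxaliplatin calls fell to 6 without vehicle library 3. The 17 alternatives together left 6 members called for cisplatin in every one of them, namely Il10rb, Il11ra1, Il17ra, Il17rc, Il1rapl1 and Il33. For oxaliplatin the 5 such members were Il10rb, Il17ra, Il17rc, Il1rapl1 and Il21r.

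**Figure D2:**
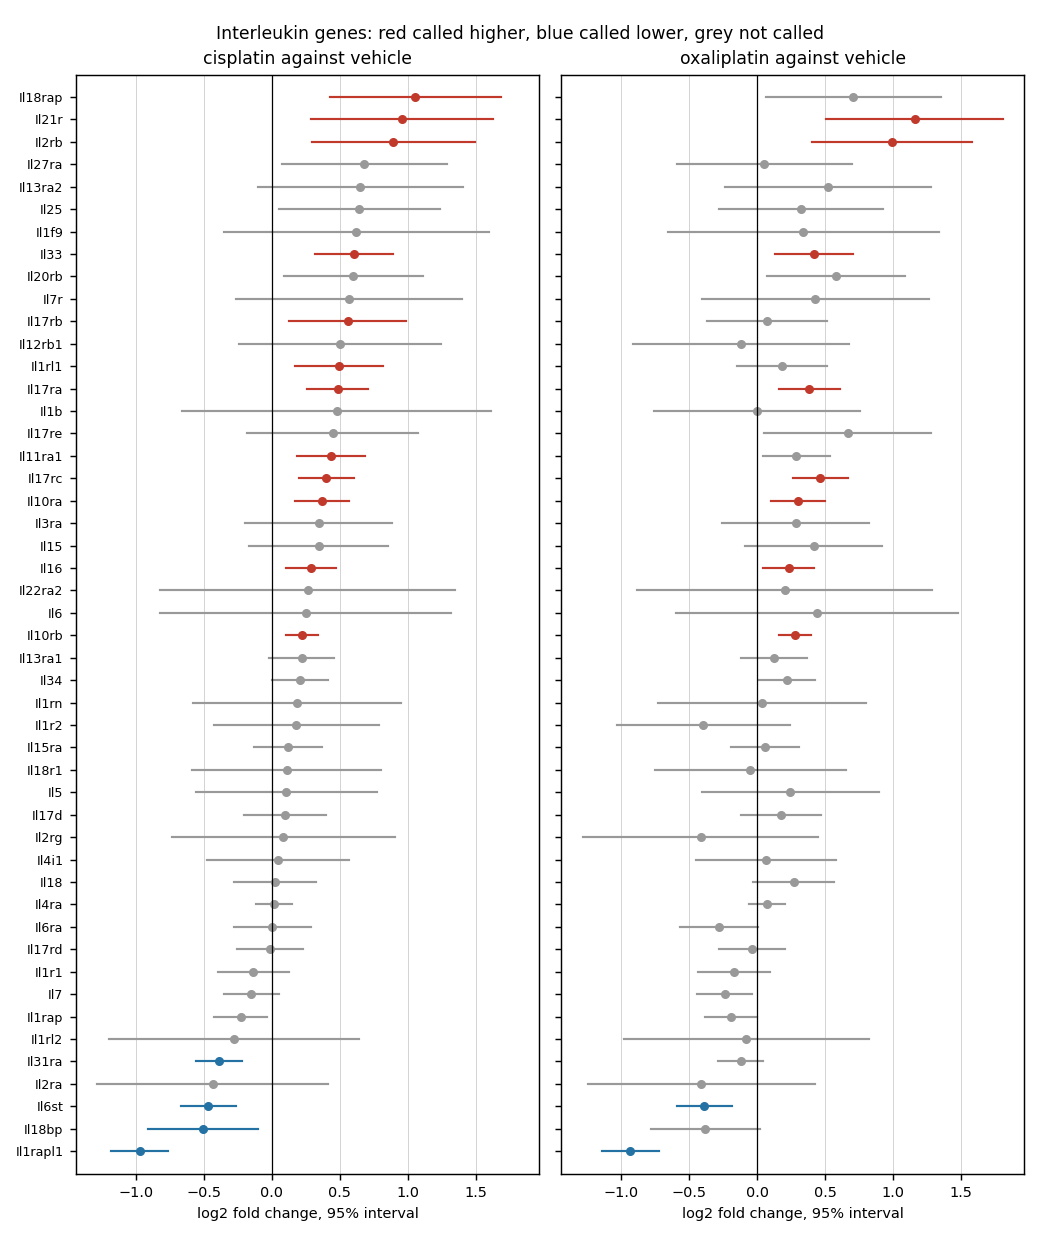
Log2 fold change of each tested member against vehicle with its 95% interval, cisplatin on the left and oxaliplatin on the right; red points were called higher, blue lower and grey not called. Il1rapl1 and Il6st lie at the lower end in both panels. Wide intervals belong to genes of few reads such as Il6 and Il22ra2, and to Il1b with cisplatin. The oxaliplatin interval of Il1b is unreliable, since its log2 change lies so near 0.

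Base composition and motif content just upstream of the transcription start can be set beside these changes. The 250 bases before the start are shown for the members of smallest p that fell and have an entry (Il1rapl1, Il6st, Il31ra) and for a receptor chain and a ligand that rose (Il17rc, Il33). They come from RefSeq on GRCm38.p6, are written 5′ to 3′ on the gene's strand, and carry motif matches in capitals. The Il31ra start, the Il17rc start and the downstream Il33 start lie inside the gene as GENCODE draws it. For Il1rapl1 the GENCODE gene ends at 88115645, short of the window shown.
Il1rapl1, chrX:88115949-88116198, minus strand: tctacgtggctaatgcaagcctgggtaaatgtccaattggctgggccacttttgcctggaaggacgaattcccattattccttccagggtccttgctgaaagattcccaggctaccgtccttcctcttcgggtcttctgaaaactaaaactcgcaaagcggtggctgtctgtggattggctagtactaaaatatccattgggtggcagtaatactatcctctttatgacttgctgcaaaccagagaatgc
Il6st, chr13:112463820-112464069, plus strand: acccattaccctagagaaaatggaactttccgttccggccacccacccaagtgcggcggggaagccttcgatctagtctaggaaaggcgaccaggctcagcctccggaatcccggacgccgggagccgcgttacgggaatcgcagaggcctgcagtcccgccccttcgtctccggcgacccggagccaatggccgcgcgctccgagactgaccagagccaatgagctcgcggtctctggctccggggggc
Il31ra, chr13:112580663-112580912, minus strand: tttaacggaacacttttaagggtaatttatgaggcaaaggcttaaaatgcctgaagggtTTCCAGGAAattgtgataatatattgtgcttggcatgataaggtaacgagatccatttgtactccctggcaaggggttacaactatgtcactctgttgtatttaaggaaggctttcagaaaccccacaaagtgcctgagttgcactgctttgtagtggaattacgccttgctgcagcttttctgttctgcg
Il17rc, chr6:113471205-113471454, plus strand: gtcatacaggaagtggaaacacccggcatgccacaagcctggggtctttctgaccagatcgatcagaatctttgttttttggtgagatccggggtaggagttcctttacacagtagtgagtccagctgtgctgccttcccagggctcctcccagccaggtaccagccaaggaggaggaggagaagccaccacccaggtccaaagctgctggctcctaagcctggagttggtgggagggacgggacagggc
Il33, upstream start, chr19:29924863-29925112, plus strand: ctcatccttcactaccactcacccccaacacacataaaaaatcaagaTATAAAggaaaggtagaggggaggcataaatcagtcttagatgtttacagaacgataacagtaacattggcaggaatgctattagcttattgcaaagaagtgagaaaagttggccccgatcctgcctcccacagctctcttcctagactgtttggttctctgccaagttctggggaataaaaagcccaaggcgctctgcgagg
Il33, downstream start, chr19:29945540-29945789, plus strand: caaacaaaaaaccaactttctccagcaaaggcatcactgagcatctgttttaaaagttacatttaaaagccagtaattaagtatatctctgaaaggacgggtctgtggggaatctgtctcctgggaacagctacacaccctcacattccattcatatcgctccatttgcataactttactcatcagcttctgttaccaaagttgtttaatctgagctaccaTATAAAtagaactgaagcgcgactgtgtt

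The Il6st window was GC-rich, with 66.0% G and C and 26 CpG pairs, where the median over all 32851 windows in the table was 52.4% and 6 CpG pairs. Il1rapl1 had 47.6% and 6 CpG pairs, Il31ra 42.0% and 4, and Il17rc 57.6% and 4. On both strands 4 motifs were searched: the STAT motif TTCNNNGAA, the AP-1 motif TGANTCA, the TATA box TATAAA, and the NF-kB motif by its consensus. The Il31ra window held a STAT match and each Il33 window a TATA box match, while the Il1rapl1, Il6st and Il17rc windows held none of the 4. Of 82 members 65 had an entry, with 80 windows. A STAT match stood in 10.0% of member windows and 7.02% of all windows, an AP-1 match in 17.5 and 6.75%, an NF-kB match in 7.5 and 7.25%, and a TATA box in 16.25 and 12.37%. A match is a string of letters in this window and no evidence of binding.

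Among the ligands, Il33 and Il16 rose and the other 10 tested were not called against vehicle for either drug. Il33 encodes an alarmin of the IL-1 family that is released from injured barrier, stromal and glial cells. Il33 reads came to 7.91, 7.89 and 6.89 CPM in vehicle libraries, to 13.2, 12.1 and 8.91 CPM in cisplatin libraries and to 10.1, 10.2 and 9.87 CPM in oxaliplatin libraries. All drug-treated libraries lay above all vehicle libraries, and cisplatin library 3 was the lowest of its group. Il33 changed by 0.60 (SE 0.131, adjusted p = 0.00367) with cisplatin and 0.42 (SE 0.132, adjusted p = 0.0234) with oxaliplatin on the log2 scale. The oxaliplatin call was lost without vehicle library 3 (adjusted p = 0.1) or without oxaliplatin library 2 (adjusted p = 0.0618).

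Il16 encodes a chemoattractant that binds CD4. For Il16 the levels were 27.2, 25.6 and 28.1 CPM in vehicle, 35.6, 34.9 and 28.6 CPM in cisplatin and 34.0, 30.0 and 31.5 CPM in oxaliplatin libraries. Both drug groups lay above vehicle without overlap, cisplatin library 3 by the least. Il16 changed by 0.29 (SE 0.0857, adjusted p = 0.0198) with cisplatin and 0.23 (SE 0.0856, adjusted p = 0.0457) with oxaliplatin on the log2 scale. Its oxaliplatin call was lost without vehicle library 1, 2 or 3 (adjusted p = 0.0757, 0.0783 and 0.0613), cisplatin library 2 (0.0539) or oxaliplatin library 1 or 3 (0.0911 and 0.0893). Its cisplatin call was lost without cisplatin library 1 or 2 (adjusted p = 0.0788 and 0.0802). Exons of Il16 overlap those of Stard5 on the other strand over 1202 bases, and since no source used here states whether the counting used strand, some of these reads may be from Stard5.

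Il1b, which encodes the pyrogenic and pain-sensitizing IL-1 beta, turned on vehicle library 2. Il1b stood at 0.300, 1.44 and 0.195 CPM in vehicle libraries 1 to 3, 0.659, 0.844 and 0.718 CPM with cisplatin and 0.467, 0.663 and 0.466 CPM with oxaliplatin. Vehicle library 2 was the highest of the 9 and the other vehicle libraries the lowest. With all libraries no call was made: the log2 difference was 0.48 (95% interval -0.66 to 1.61, adjusted p = 0.498) for cisplatin and 0.00 (adjusted p = 0.999) for oxaliplatin. No interval is given for oxaliplatin, because an SE taken from F is unreliable for a log2 difference so near 0. Without vehicle library 2 the log2 difference was 1.61 (adjusted p = 0.00429) for cisplatin and 1.14 (adjusted p = 0.0282) for oxaliplatin. The neutrophil markers summed to 108.8 CPM in that library and to 61.3 and 46.1 CPM in vehicle libraries 1 and 3, and their part in this was not tested.

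Il15, which sustains NK and memory T cells, also depended on vehicle library 2. Il15 reads came to 1.31, 2.38 and 1.17 CPM in vehicle libraries, to 1.92, 2.24 and 1.65 CPM in cisplatin libraries and to 1.92, 2.11 and 2.10 CPM in oxaliplatin libraries. The log2 difference was 0.34 and 0.41 with all libraries (adjusted p = 0.265 and 0.169), and 0.67 and 0.74 without that library (adjusted p = 0.0179 and 0.00953). Il34, the abundant CSF-1 receptor ligand, lay just short of a call. For Il34 the levels were 16.0, 19.9 and 19.3 CPM in vehicle, 22.4, 22.2 and 19.0 CPM in cisplatin and 21.1, 22.9 and 20.2 CPM in oxaliplatin libraries. Its log2 difference of 0.21 and 0.22 was not called (adjusted p = 0.101 and 0.0796), and it was called for both drugs without vehicle library 2 (0.28 and 0.29, adjusted p = 0.0471 and 0.0361) without cisplatin library 3 (0.31 and 0.25, adjusted p = 0.0242 and 0.0362) or with no count filter (0.25 and 0.27, adjusted p = 0.0335 and 0.0181).

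The remaining tested ligands were Il1f9 (IL-36 gamma), Il5, Il6, Il7, Il17d, Il18 and Il25. Il6 stood at 0.262, 0.251 and 0.130 CPM in vehicle libraries 1 to 3, 0.115, 0.265 and 0.346 CPM with cisplatin and 0.197, 0.332 and 0.311 CPM with oxaliplatin. These values overlap in all groups, and the intervals were wide, from -0.82 to 1.32 for cisplatin and from -0.60 to 1.48 for oxaliplatin. Il7, the lymphocyte survival factor, was lower in every oxaliplatin library than in any vehicle library, with a log2 difference of -0.24 and adjusted p = 0.0571. Il25 had a log2 difference of 0.64 for cisplatin (adjusted p = 0.0796), and it was called without vehicle library 2 (0.86, adjusted p = 0.0344). Il18 and Il17d differed by at most 0.27 on the log2 scale, Il1f9 by 0.62 and Il5 by 0.24, none of them called.

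Of the antagonists, Il18bp, whose soluble product neutralizes IL-18, was called lower with cisplatin. Il18bp reads came to 1.99, 2.07 and 2.15 CPM in vehicle libraries, to 1.52, 1.74 and 1.09 CPM in cisplatin libraries and to 1.45, 1.59 and 1.74 CPM in oxaliplatin libraries. Every drug library lay below every vehicle library. Il18bp had a log2 change of -0.51 (SE 0.185, adjusted p = 0.0469) with cisplatin and -0.38 (SE 0.182, adjusted p = 0.115) with oxaliplatin, the former called and the latter not called. The cisplatin call is fragile: it was lost in 15 of the 17 alternatives, among them the removal of any library other than cisplatin library 2, with adjusted p between 0.0606 and 0.166, and scaling by library totals (adjusted p = 0.456). With the length and GC trend removed it was called for oxaliplatin (-0.51, adjusted p = 0.0437). Il1rn, which blocks the IL-1 receptor, was not called, with a log2 difference of 0.18 for cisplatin and 0.04 for oxaliplatin (adjusted p = 0.707 and 0.944).

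Among the IL-1 family receptors, Il1rapl1 had the smallest adjusted p of any member for each drug. The gene lies at chrX:86740870-88115645 on the minus strand of GRCm38 and encodes an accessory-protein-like membrane protein that organizes synapses in neurons. For Il1rapl1 the levels were 16.8, 14.8 and 13.8 CPM in vehicle, 8.00, 7.23 and 7.95 CPM in cisplatin and 8.60, 7.22 and 8.01 CPM in oxaliplatin libraries. The 6 drug libraries lay close together and far below the 3 vehicle libraries. Il1rapl1 changed by -0.97 (SE 0.0965, adjusted p = 3.73e-05) with cisplatin and -0.93 (SE 0.0958, adjusted p = 2.91e-05) with oxaliplatin on the log2 scale. It kept its call in all 17 alternatives for each drug, with log2 changes between -1.05 and -0.607 for cisplatin and between -1.0 and -0.452 for oxaliplatin. In whole ganglia, fewer cells of a type and less RNA per cell cannot be told apart, here or below.

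The accessory chain of the IL-18 receptor, Il18rap, and the IL-33 receptor Il1rl1 were called higher with cisplatin. Il18rap stood at 0.750, 1.31 and 0.553 CPM in vehicle libraries 1 to 3, 1.86, 1.74 and 1.46 CPM with cisplatin and 0.958, 1.47 and 1.55 CPM with oxaliplatin. Cisplatin values lay above all vehicle values, and oxaliplatin library 1 fell among the vehicle libraries. Il18rap had a log2 change of 1.05 (SE 0.288, adjusted p = 0.0128) with cisplatin and 0.71 (SE 0.294, adjusted p = 0.0725) with oxaliplatin, the former called and the latter not called. The cisplatin call was lost without vehicle library 1 (adjusted p = 0.0528) or 3 (adjusted p = 0.0739), and an oxaliplatin call appeared without vehicle library 2 (log2 1.05, adjusted p = 0.0126) or oxaliplatin library 1 (0.93, adjusted p = 0.0215), with no count filter (0.76, adjusted p = 0.0292) and with the length and GC trend removed (0.85, adjusted p = 0.0462). Between the drugs the log2 difference was 0.35 (95% interval -0.19 to 0.88) and was not called (adjusted p = 0.836).

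Il1rl1 reads came to 2.40, 3.57 and 2.54 CPM in vehicle libraries, to 4.13, 4.03 and 3.48 CPM in cisplatin libraries and to 3.07, 3.01 and 3.32 CPM in oxaliplatin libraries. Vehicle library 2 overlapped the cisplatin range. Il1rl1 had a log2 change of 0.49 (SE 0.149, adjusted p = 0.0211) with cisplatin and 0.18 (SE 0.151, adjusted p = 0.357) with oxaliplatin, the former called and the latter not called. Removal of vehicle library 1 or 3 or of cisplatin library 1 or 2 ended the cisplatin call (adjusted p = 0.084, 0.0879, 0.0648 and 0.0682). Neither the IL-1 receptor Il1r1 nor its decoy Il1r2 was called, nor were Il18r1 and the IL-36 receptor chain Il1rl2. The accessory chain Il1rap, which IL-1, IL-33 and IL-36 receptors share, was at 16.6, 16.0 and 16.0 CPM in vehicle and lower in every drug library. Its log2 difference was -0.23 for cisplatin (adjusted p = 0.0572) and -0.19 for oxaliplatin (adjusted p = 0.106), and the former was called without cisplatin library 1 (-0.33, adjusted p = 0.0117).

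Among receptors of the gp130 group, Il6st itself fell with each drug. gp130 transmits the signals of IL-6, IL-11, LIF, oncostatin M and CNTF, and its gene lies at chr13:112464070-112510086 on the plus strand of GRCm38. For Il6st the levels were 806, 669.9 and 794 CPM in vehicle, 509, 556 and 578 CPM in cisplatin and 634, 540.2 and 562 CPM in oxaliplatin libraries. Every drug library was below the lowest vehicle library, which was library 2. Il6st changed by -0.47 (SE 0.0924, adjusted p = 0.00207) with cisplatin and -0.39 (SE 0.0923, adjusted p = 0.00564) with oxaliplatin on the log2 scale. Under library totals alone the call was lost for cisplatin (-0.19, adjusted p = 0.392) and oxaliplatin (-0.10, adjusted p = 0.664), and the removal of the trend with exon length and GC content ended the oxaliplatin call (-0.16, adjusted p = 0.055). Its exons span 11.1 kb, and genes called lower were long in general: the median exon length was 6.9 kb over all genes called lower with cisplatin and 2.74 kb over those called higher.

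Il31ra, the ligand-specific chain of the itch receptor for IL-31, was called lower with cisplatin. Il31ra stood at 27.1, 26.5 and 25.2 CPM in vehicle libraries 1 to 3, 21.1, 19.7 and 19.3 CPM with cisplatin and 26.6, 21.9 and 24.0 CPM with oxaliplatin. Cisplatin values lay below those of both other groups, and oxaliplatin values reached into the vehicle range. Il31ra had a log2 change of -0.39 (SE 0.0767, adjusted p = 0.002) with cisplatin and -0.12 (SE 0.0758, adjusted p = 0.232) with oxaliplatin, the former called and the latter not called. Scaling by library totals ended the cisplatin call (-0.10, adjusted p = 0.621). Between the drugs the log2 difference was -0.27 (95% interval -0.43 to -0.11), with adjusted p = 0.599. Of the markers of IL-31 responsive itch neurons, Htr1f, Cysltr2 and Osmr were called lower for each drug, whereas Il31ra was called with cisplatin only. Nppb was called higher, and Sst and Nts were not called. Both Osmr calls were lost with the length and GC trend removed (-0.07 and -0.03, adjusted p = 0.456 and 0.791). The 6 markers summed to between 101.9 and 113.4 CPM in vehicle, 85.9 and 90.8 CPM in cisplatin and 87.1 and 101.5 CPM in oxaliplatin. Osmr alone supplied the larger part of each sum. It gave 60.95 to 68.68 CPM in vehicle, 48.53 to 52.72 CPM in cisplatin and 46.31 to 59.66 CPM in oxaliplatin. The part of these markers in the Il31ra result was not tested.

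Il11ra1, which binds IL-11 and then gp130, rose with cisplatin. Il11ra1 reads came to 12.9, 15.2 and 12.6 CPM in vehicle libraries, to 20.0, 19.3 and 15.3 CPM in cisplatin libraries and to 15.0, 16.2 and 18.2 CPM in oxaliplatin libraries. Cisplatin libraries all exceeded vehicle, library 3 only just. Il11ra1 had a log2 change of 0.43 (SE 0.114, adjusted p = 0.0101) with cisplatin and 0.29 (SE 0.114, adjusted p = 0.0594) with oxaliplatin, the former called and the latter not called. Il11ra1 was called for oxaliplatin in 8 of the 17 alternatives. These were the removal of vehicle library 2 (0.39, adjusted p = 0.0232), cisplatin library 3 (0.32, adjusted p = 0.0172) or oxaliplatin library 1 (0.38, adjusted p = 0.026), DESeq2's size factors in edgeR (0.30, adjusted p = 0.0494), DESeq2's Wald test (0.30, adjusted p = 0.0413), no count filter (0.34, adjusted p = 0.0088), and library totals with all libraries (0.60, adjusted p = 0.000716) or without vehicle library 2 (0.54, adjusted p = 0.00586). Reads that aligned to several places were assigned to no gene, so the level of Il11ra1, which has the near-copy Il11ra2, is uncertain. The IL-6 binding chain Il6ra was not called, at a log2 difference of 0.00 for cisplatin and -0.28 for oxaliplatin (adjusted p = 0.995 and 0.109). Il12rb1 and Il27ra, chains of the IL-12 and IL-27 receptors, were not called either; Il27ra had 0.68 for cisplatin (adjusted p = 0.0729), called without cisplatin library 1 (0.86, adjusted p = 0.0336).

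Each chain of the IL-10 receptor rose with each drug. Il10rb is shared by receptors for IL-10, IL-22 and the lambda interferons, and Il10ra is the chain specific to IL-10. For Il10rb the levels were 30.1, 31.5 and 32.8 CPM in vehicle, 37.5, 37.3 and 35.1 CPM in cisplatin and 38.1, 38.3 and 38.2 CPM in oxaliplatin libraries. The oxaliplatin libraries lay highest and the groups did not overlap. Il10rb changed by 0.22 (SE 0.0543, adjusted p = 0.00742) with cisplatin and 0.28 (SE 0.0541, adjusted p = 0.00162) with oxaliplatin on the log2 scale. This was the smallest change among the 16 cisplatin calls. A transcript of the predicted gene Gm21970 shares 569 exon bases with Il10rb on the same strand.

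Il10ra stood at 5.66, 6.26 and 5.30 CPM in vehicle libraries 1 to 3, 7.31, 7.33 and 7.36 CPM with cisplatin and 7.57, 6.73 and 6.74 CPM with oxaliplatin. The vehicle libraries were the lowest 3. Il10ra changed by 0.37 (SE 0.0918, adjusted p = 0.00805) with cisplatin and 0.30 (SE 0.0917, adjusted p = 0.0202) with oxaliplatin on the log2 scale. The oxaliplatin call was lost without vehicle library 3 (adjusted p = 0.0869), and removal of the length and GC trend ended both calls (adjusted p = 0.0633 and 0.182). The other tested chains of this family were Il20rb, a chain of the IL-19, IL-20 and IL-24 receptors, and the soluble IL-22 binding protein Il22ra2. Il20rb was above vehicle in all 6 drug libraries with log2 differences of 0.60 and 0.58 (adjusted p = 0.0623 and 0.0655), and was called for both drugs without cisplatin library 3 (0.79 and 0.60, adjusted p = 0.0161 and 0.0349) and for oxaliplatin without oxaliplatin library 1 (0.71, adjusted p = 0.0403). Il22ra2 was not called.

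In the IL-17 receptor family, the shared chain Il17ra and its partner for IL-17A and IL-17F, Il17rc, rose with each drug, although both ligands were undetected. Il17ra reads came to 4.05, 4.13 and 4.29 CPM in vehicle libraries, to 6.05, 6.22 and 5.18 CPM in cisplatin libraries and to 5.18, 5.45 and 5.67 CPM in oxaliplatin libraries. No drug library reached down to the vehicle range. Il17ra changed by 0.48 (SE 0.103, adjusted p = 0.0033) with cisplatin and 0.38 (SE 0.103, adjusted p = 0.0109) with oxaliplatin on the log2 scale.

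For Il17rc the levels were 6.82, 6.70 and 6.79 CPM in vehicle, 9.23, 9.40 and 8.19 CPM in cisplatin and 8.43, 9.62 and 10.0 CPM in oxaliplatin libraries. The vehicle libraries lay close together, below all drug libraries. Il17rc changed by 0.40 (SE 0.0934, adjusted p = 0.00552) with cisplatin and 0.46 (SE 0.0927, adjusted p = 0.00197) with oxaliplatin on the log2 scale. Both chains kept their calls in all 17 alternatives for each drug. Il17rb, the IL-25 receptor chain, was called higher with cisplatin. Il17rb stood at 1.5, 1.69 and 1.1 CPM in vehicle libraries 1 to 3, 2.27, 2.19 and 1.70 CPM with cisplatin and 1.38, 1.37 and 1.66 CPM with oxaliplatin. Cisplatin library 3 was barely above vehicle library 2. Il17rb had a log2 change of 0.56 (SE 0.196, adjusted p = 0.0417) with cisplatin and 0.07 (SE 0.202, adjusted p = 0.8) with oxaliplatin, the former called and the latter not called. Its cisplatin call was lost without vehicle library 1 or 3 (adjusted p = 0.0651 and 0.184), cisplatin library 1 or 2 (0.117 and 0.121) or oxaliplatin library 2 or 3 (0.0517 and 0.0502). It was also lost by DESeq2's Wald test (0.57, adjusted p = 0.0606) and with the length and GC trend removed (0.48, adjusted p = 0.0795). Il17rd, a brake on growth factor signals, was not called, and Il17re, the IL-17C receptor chain, was not called for oxaliplatin (0.66, adjusted p = 0.0764). An oxaliplatin call of Il17re appeared without cisplatin library 3 (0.69, adjusted p = 0.0326), under library totals alone (0.95, adjusted p = 0.0112) and under library totals without vehicle library 2 (0.81, adjusted p = 0.0427).

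In the common gamma chain family, Il2rb and Il21r were called higher with each drug, both at low levels. Il2rb carries the signals of IL-2 and IL-15 in NK and T cells, and Il21r those of IL-21 in lymphocytes. Il2rb reads came to 0.450, 0.689 and 0.390 CPM in vehicle libraries, to 1.12, 0.796 and 0.798 CPM in cisplatin libraries and to 1.01, 1.04 and 0.829 CPM in oxaliplatin libraries. The vehicle libraries lay below both drug groups, and library 2 was the highest of them. Il2rb changed by 0.89 (SE 0.274, adjusted p = 0.0227) with cisplatin and 0.99 (SE 0.27, adjusted p = 0.0119) with oxaliplatin on the log2 scale. The cisplatin call was lost without vehicle library 1 or 3 or cisplatin library 1 (adjusted p = 0.0742, 0.106 and 0.0803) and the oxaliplatin call without vehicle library 3 (0.0639).

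For Il21r the levels were 0.300, 0.564 and 0.423 CPM in vehicle, 0.746, 1.04 and 0.612 CPM in cisplatin and 0.860, 0.853 and 1.06 CPM in oxaliplatin libraries. All 6 drug libraries exceeded the vehicle libraries, cisplatin library 3 by the least. Il21r changed by 0.96 (SE 0.306, adjusted p = 0.027) with cisplatin and 1.16 (SE 0.299, adjusted p = 0.00884) with oxaliplatin on the log2 scale. The cisplatin call was lost without vehicle library 1 or 3 or cisplatin library 2 (adjusted p = 0.112, 0.0717 and 0.117) and with the length and GC trend removed (0.84, adjusted p = 0.0512), and the oxaliplatin call held in all 17 alternatives. The common gamma chain Il2rg was not called, at log2 differences of 0.08 and -0.41 (adjusted p = 0.879 and 0.425). Its exons share 728 bases with the predicted gene Gm20489 on the same strand, so its level is uncertain. Il4ra, the most abundant of this family per kilobase, was at 45.0 ± 2.40 CPM in vehicle, 45.6 ± 2.12 CPM in cisplatin and 47.5 ± 2.42 CPM in oxaliplatin (SD, n = 3), with log2 differences of 0.02 (95% interval -0.12 to 0.15) and 0.07 (-0.06 to 0.21). Il2ra, Il7r and Il15ra were not called, and of the IL-13 and common beta chain family neither were Il3ra, Il13ra1 and the decoy Il13ra2; Il13ra1 was called for cisplatin without cisplatin library 3 (0.34, adjusted p = 0.0275) and with no count filter (0.26, adjusted p = 0.046). Il4i1 was not called. Its exons share 3423 bases with Tbc1d17 on the other strand and 97 with Nup62 on the same strand, so its level is uncertain too.

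**Figure D3:**
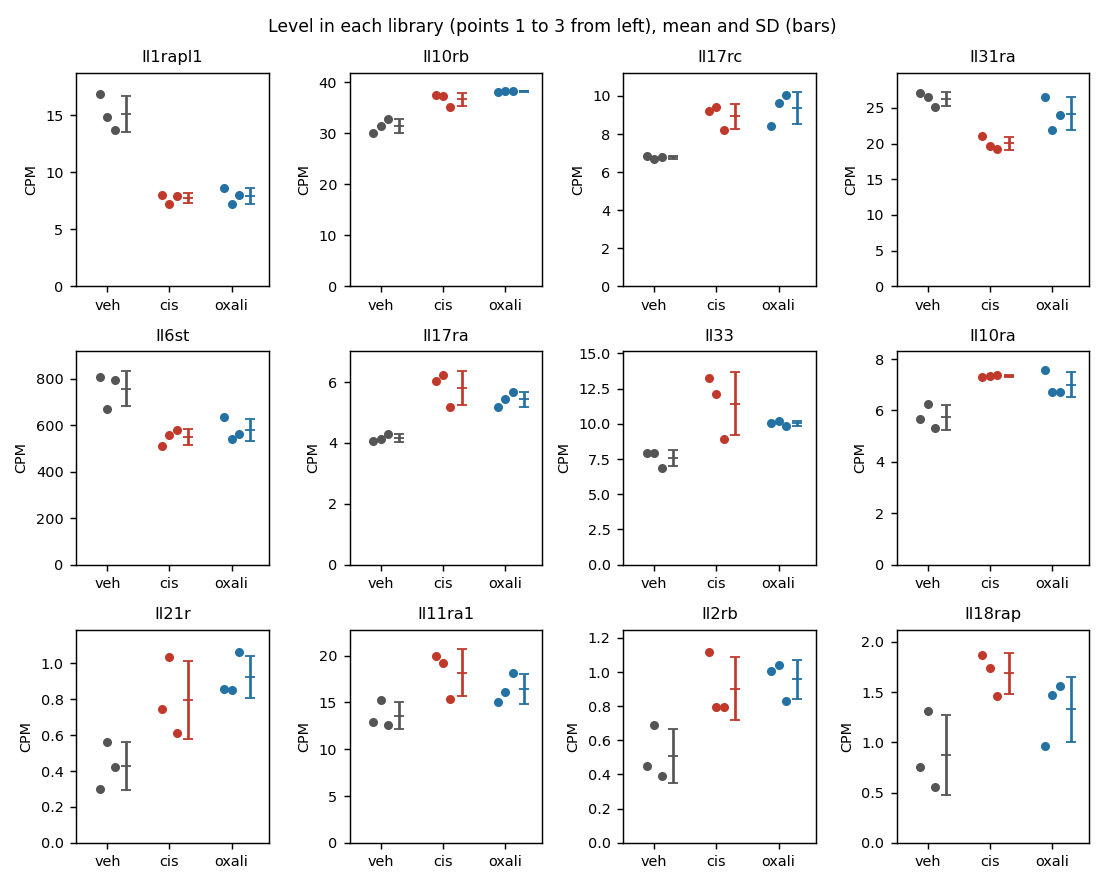
CPM in each library of the 12 members with the smallest adjusted p, each panel starting at 0; points are libraries 1 to 3 from left, and the bar beside them gives the mean and SD of the group. Il1rapl1 and Il6st were lower in all 6 drug libraries than in the vehicle libraries, and the low-level genes Il21r, Il2rb and Il18rap show the widest spread relative to their level among the vehicle libraries.

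Markers of other cell types were called higher in the same comparisons as these receptor and ligand genes. Of all tested genes 15.8% were called higher and 22.9% lower with cisplatin, and 17.5% higher and 24.1% lower with oxaliplatin. Of 11 macrophage markers in the files 10 were called higher with cisplatin and 8 with oxaliplatin, and they summed to between 125.2 and 167.3 CPM in vehicle, 198.4 and 266.2 CPM in cisplatin and 189.9 and 230.4 CPM in oxaliplatin. All 10 neutrophil markers were called higher for each drug, with sums between 46.1 and 108.8, 179.1 and 289.3, and 96.2 and 218.1 CPM. T and NK cell markers were scarce: 4 of 10 were too low to test, Nkg7 was called higher for each drug, Lck with oxaliplatin, and Thy1, which neurons also express, was called lower. The full list summed to between 415.2 and 453.7 CPM in vehicle, 362.9 and 413.5 CPM in cisplatin and 385.8 and 395.7 CPM in oxaliplatin. It was thus lower in every drug library than in any vehicle library. Without Thy1 the list summed to between 2.17 and 3.13 CPM in vehicle, 3.11 and 3.47 CPM in cisplatin and 3.32 and 3.98 CPM in oxaliplatin, a sum formed after the values were seen. Of 5 B cell markers 3 were called higher with cisplatin and 1 with oxaliplatin, at sums between 1.35 and 2.63, 2.74 and 5.02, and 2.65 and 4.15 CPM.

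Markers of vessels, sheaths and erythroid cells were higher too, and those of mast cells in part. Of 8 mast cell markers 4 were called higher for each drug and 1, Kit, lower. The full list summed to 99.28 to 120.3 CPM in vehicle, 82.98 to 91.64 CPM in cisplatin and 74.24 to 91.97 CPM in oxaliplatin, lower in every drug library. Without Kit the sums were 12.8 to 15.9, 17.5 to 25.8 and 20.0 to 25.8 CPM, again formed after the values were seen. Endothelial markers were called higher in 5 and 6 of 6, with sums of 71.9 to 85.6, 109.1 to 137.0 and 115.9 to 126.1 CPM. All 7 leptomeningeal and nerve sheath markers were called higher for each drug, at 128.6 to 162.1, 257.6 to 501.1 and 318.6 to 459.3 CPM. So were all 6 erythroid markers, at 37.3 to 49.6, 92.5 to 203 and 82.2 to 199.5 CPM. Fibroblast markers were called higher in 5 and 3 of 5. Myelinating Schwann cell markers were called higher in 5 and 3 of 5, at the sums given above. Neuron markers were called lower in 3 of 6 for each drug. Of 5 satellite glia markers 1 was called higher and 2 lower with cisplatin, and 0 higher and 2 lower with oxaliplatin, at sums of 800.9 to 823.6, 833.9 to 891.7 and 754.4 to 805.8 CPM. No marker in any list was at 0 in all libraries. The part of these cell types in the changes of Il10ra, Il16, Il1rl1, Il18rap, Il21r, Il2rb, Il33 and the other members was not tested.

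No member was called different between cisplatin and oxaliplatin: 0 of 48 passed, where 0.0115% of all genes did. By edgeR 6 members had an unadjusted p under 0.05, and by DESeq2 2 had, with 0 called as well. These 6 are Il31ra, Il6ra, Il1rl1, Il17rb, Il1r2 and Il27ra. Values of the 2 drug groups did not overlap for 7 of 48 members, 5 higher with cisplatin and 2 lower, where 14.1% of all genes did not overlap, 8.04% higher and 6.1% lower. The median half-width of the 95% interval was 0.42 on the log2 scale over the 48 members. These intervals are not adjusted for the number of genes tested, and a call needs a larger difference at the same spread. Il17rb, for example, differed by 0.48 between the drugs with adjusted p = 0.746. Drug differences of 0.42, and larger ones, were therefore not detectable for many members.

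The genes through which interleukins act were taken from 4 lists, 55 genes in all, of which 51 were tested. With cisplatin 8 of them rose and 15 fell, and with oxaliplatin 8 rose and 16 fell, beside the 38.7 and 41.6% of all genes called. Between the drugs 0 were called, with 2 at an unadjusted p under 0.05 by edgeR and 2 by DESeq2. Under library totals alone the split turned to 19 higher and 2 lower for cisplatin and 22 higher and 4 lower for oxaliplatin. Ptprz1 and Tab3 were the genes still lower for cisplatin under that scaling, and Cntfr, Ptprz1, Socs4 and Tab3 for oxaliplatin.

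Of the 16 tested ligands and receptor chains with other names, 5 rose and 4 fell with cisplatin and 4 rose and 5 fell with oxaliplatin. Ptprz1, a receptor phosphatase that also binds IL-34, was at 142 ± 10.8 CPM in vehicle, 73.1 ± 17.7 CPM in cisplatin and 76.9 ± 12.6 CPM in oxaliplatin (SD, n = 3), with log2 changes of -0.96 with cisplatin (adjusted p = 0.000426) and -0.89 with oxaliplatin (adjusted p = 0.000636). Lifr, the partner of gp130 for LIF, was at 1452 ± 174 CPM in vehicle, 961 ± 72.5 CPM in cisplatin and 1049 ± 117 CPM in oxaliplatin (SD, n = 3), changed by -0.60 with cisplatin (adjusted p = 0.00138) and -0.47 with oxaliplatin (adjusted p = 0.00523). Cntfr, the CNTF-binding chain, was at 23.9 ± 1.72 CPM in vehicle, 16.5 ± 2.78 CPM in cisplatin and 13.6 ± 0.918 CPM in oxaliplatin (SD, n = 3), changed by -0.53 with cisplatin (adjusted p = 0.00251) and -0.81 with oxaliplatin (adjusted p = 0.000152). Osmr, which pairs with gp130 for oncostatin M and with Il31ra for IL-31, was at 65.5 ± 4.05 CPM in vehicle, 50.4 ± 2.15 CPM in cisplatin and 53.0 ± 6.67 CPM in oxaliplatin (SD, n = 3), changed by -0.38 with cisplatin (adjusted p = 0.00384) and -0.30 with oxaliplatin (adjusted p = 0.0117). All 4 were lower in every drug library than in any vehicle library. With the length and GC trend removed, the Osmr call was lost for cisplatin (-0.07, adjusted p = 0.456) and oxaliplatin (-0.03, adjusted p = 0.791), and the Lifr call for oxaliplatin (-0.20, adjusted p = 0.0594). Without vehicle library 1 the Osmr change with oxaliplatin was -0.24 and no longer called (adjusted p = 0.0733).

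Of 11 JAK and STAT genes tested, 3 were called lower with cisplatin and 4 with oxaliplatin and none higher, but under library totals alone all these calls were lost and Stat4 and Stat5a were called higher for each drug and Stat6 with oxaliplatin. Jak1, the kinase bound to gp130 and to the common gamma chain's partners, was at 575 ± 20.4 CPM in vehicle, 362 ± 20.5 CPM in cisplatin and 397 ± 42.9 CPM in oxaliplatin (SD, n = 3), changed by -0.67 with cisplatin (adjusted p = 9.89e-05) and -0.53 with oxaliplatin (adjusted p = 0.000357). Stat2, a transducer of interferon signals, changed by -0.52 with cisplatin (adjusted p = 0.000497) and -0.35 with oxaliplatin (adjusted p = 0.00541). Stat3 was also called lower with cisplatin (-0.23, adjusted p = 0.0304) and not with oxaliplatin (-0.16, adjusted p = 0.108). Jak2 and Jak3 were called lower with oxaliplatin, by -0.21 (adjusted p = 0.0143) and -0.41 (adjusted p = 0.0212), and not with cisplatin (-0.12 and -0.30, adjusted p = 0.144 and 0.0796). The Jak2 call was lost without vehicle library 1 (adjusted p = 0.111) or oxaliplatin library 3 (0.0602), with no count filter (0.0702) and with the length and GC trend removed (0.0622). The Jak3 call was lost without vehicle library 2 or 3 (adjusted p = 0.0712 and 0.0662) or oxaliplatin library 1 or 3 (0.0897 and 0.0614), and with no count filter (0.0563).

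Of the 8 SOCS genes, whose products shut off JAK-STAT signals, 1 rose and 3 fell with cisplatin and 1 rose and 2 fell with oxaliplatin. Socs3, which gp130 signals induce and which binds gp130, was the one that rose: it was at 7.14 ± 1.22 CPM in vehicle, 10.3 ± 0.970 CPM in cisplatin and 9.57 ± 0.865 CPM in oxaliplatin (SD, n = 3), changed by 0.55 with cisplatin (adjusted p = 0.00462) and 0.44 with oxaliplatin (adjusted p = 0.0139). Socs4, a relative that acts on growth factor receptors, was at 58.3 ± 5.64 CPM in vehicle, 37.9 ± 1.51 CPM in cisplatin and 35.1 ± 0.605 CPM in oxaliplatin (SD, n = 3), changed by -0.62 with cisplatin (adjusted p = 5.16e-05) and -0.74 with oxaliplatin (adjusted p = 1.5e-05). The oxaliplatin call of Socs3 was lost without vehicle library 1 or oxaliplatin library 2 (adjusted p = 0.0546 and 0.0518). Socs5 changed by -0.19 with cisplatin (adjusted p = 0.0162) and -0.22 with oxaliplatin (adjusted p = 0.00689), and its cisplatin call was lost without vehicle library 3 or cisplatin library 1 or 2 (adjusted p = 0.0584, 0.0522 and 0.0857), with no count filter (0.0802) and with the length and GC trend removed (0.0887). Cish was lower with cisplatin (-0.37, adjusted p = 0.0294) and not called with oxaliplatin (-0.30, adjusted p = 0.0652). Its cisplatin call was lost without vehicle library 1 or 2 or cisplatin library 1 or 2 (adjusted p = 0.137, 0.053, 0.103 and 0.0618), and an oxaliplatin call appeared without oxaliplatin library 1 (adjusted p = 0.0305). Library totals alone took away the calls of Socs5 and Cish and, for cisplatin, of Socs4 (-0.34, adjusted p = 0.0532), and Socs1 was then called higher for each drug and Socs2 and Socs7 with oxaliplatin.

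Of 16 genes of IL-1 and IL-17 receptor signalling, 2 rose and 5 fell with cisplatin and 3 rose and 5 fell with oxaliplatin. Tab3, which couples ubiquitin chains to the kinase TAK1, was at 58.3 ± 4.52 CPM in vehicle, 32.1 ± 2.07 CPM in cisplatin and 29.0 ± 4.11 CPM in oxaliplatin (SD, n = 3), changed by -0.86 with cisplatin (adjusted p = 5.81e-05) and -1.01 with oxaliplatin (adjusted p = 1.79e-05). Its relative Tab2 changed by -0.43 with cisplatin (adjusted p = 0.000112) and -0.48 with oxaliplatin (adjusted p = 4.25e-05), whereas Tab1, the activating subunit of TAK1, rose by 0.33 with cisplatin (adjusted p = 0.00709) and 0.38 with oxaliplatin (adjusted p = 0.00308). Irak1, a kinase next to the receptor, changed by -0.17 with cisplatin (adjusted p = 0.0205) and -0.26 with oxaliplatin (adjusted p = 0.00196). Its cisplatin call was lost without vehicle library 1 or 3 (adjusted p = 0.0997 and 0.0681) or any cisplatin library (0.0576, 0.0737 and 0.0733), and with no count filter (-0.13, adjusted p = 0.165). Under library totals alone the Tab2 and Irak1 calls were lost for each drug, whereas Tab3 was still called lower and Tab1 still called higher.

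**Figure D4:**
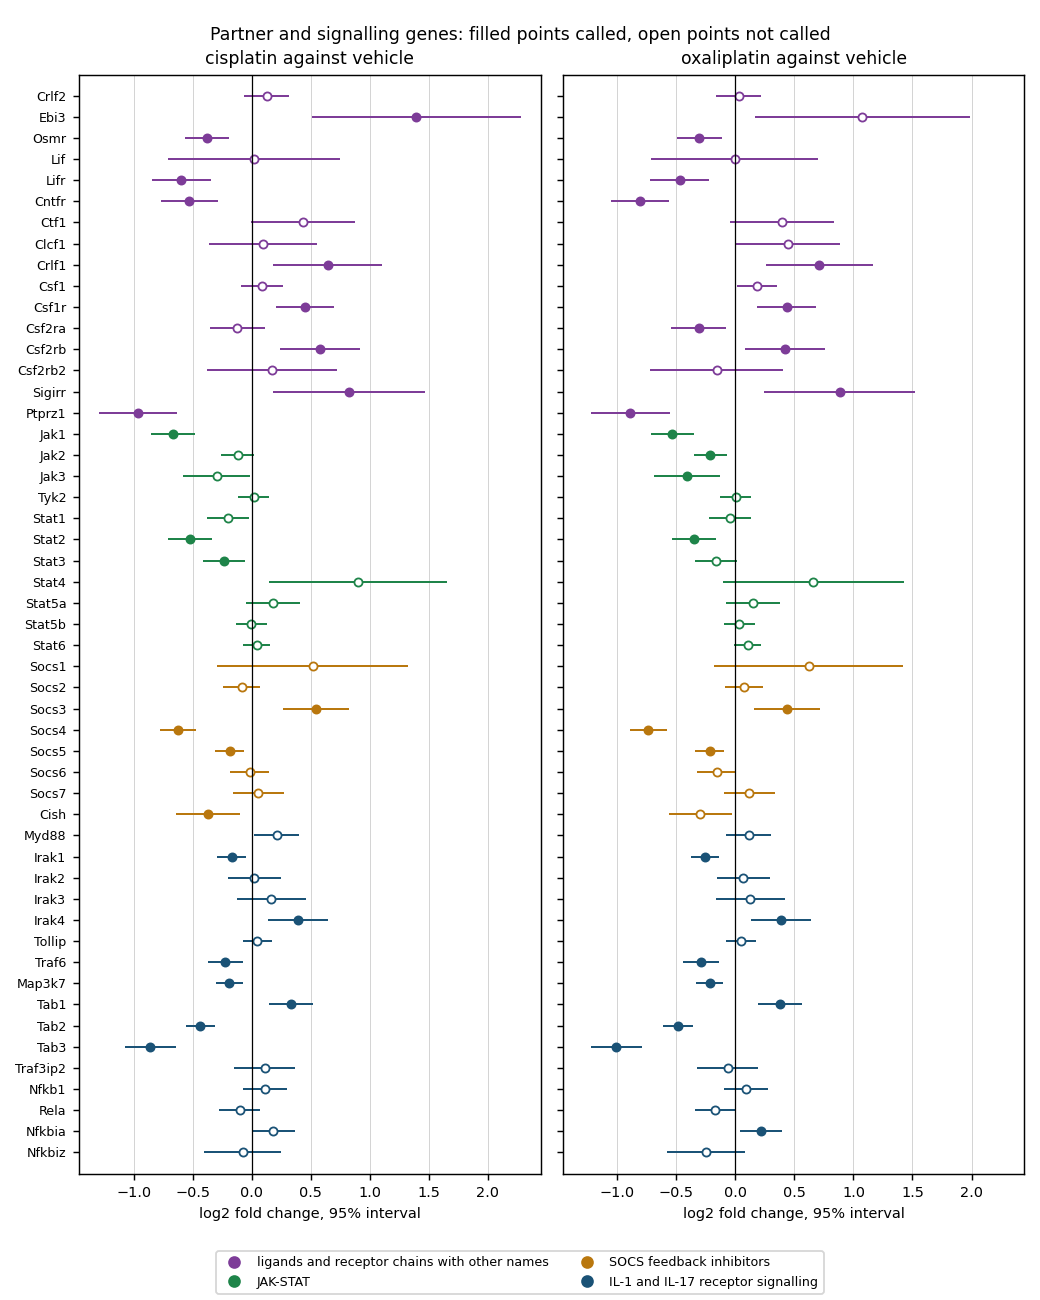
Log2 fold change against vehicle with 95% interval for the 51 tested partner and signalling genes, coloured by list; filled points were called and open points were not. Ptprz1 and Tab3 lie furthest to the left in each panel, and Socs3, Tab1 and Csf1r lie to the right of 0.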

How the data were processed

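Whole lumbar ganglia were profiled by stranded total RNA sequencing, per the labels' protocols, in 9 libraries of 3 groups. The deposited values are raw counts of reads per gene symbol, made by the authors with STAR, SAMtools and HTSeq on mm10 (GRCm38), per the submitters' processing notes. Annotation and strand setting: not given in the sources used here. In each file 5 rows of reads assigned to no single gene were left out. They held 74.5% of recorded reads in vehicle library 2 and 42.8 to 48.7% in the other libraries.

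Counts were tested with edgeR 4.0.16 (R 4.3.3): all 9 libraries, 1 term per group, TMM scaling, filterByExpr, the quasi-likelihood test and Benjamini-Hochberg adjustment over 17348 genes; SE is the log2 change over the square root of F. Groups followed the labels, and replicate counts differed by more than sampling noise in every group. Vehicle library 2 differed by far the most. The chi-square per degree of freedom was 491 and 544.6 between it and vehicle libraries 1 and 3. Other pairs within a group lay between 4.13 and 20.12. Exon lengths and positions are from GENCODE M21. Alternatives were DESeq2 1.42.0 and its size factors, library totals, other count filters, a replicate block, removal of length and GC trends (mgcv 1.9.3) and leaving out each library; library totals without vehicle library 2 was added after seeing the data. The script was tested on simulated counts.

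Members, lists and tests were chosen with earlier results of these data known. Every detected member is named. The 12 of smallest adjusted p and those called at 2-fold are given by library, as are some others chosen after their values were seen. Up to 4 genes per pathway list are named by p, and Stat3 was added to them after its values were seen.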

Additional observations from a re-analysis of the deposited data

How the results depend on the processing

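The count of called members moved by more than 1.5 times under a few settings. For oxaliplatin against vehicle it went from 10 to 21 under library totals alone and to 20 under library totals without vehicle library 2, of which 18 were higher and 2 lower. For cisplatin the same settings gave 21 and 22 calls in place of 16. Leaving out 1 library at a time gave 10 to 19 calls for cisplatin, 6 to 14 for oxaliplatin and 0 for the direct comparison; pathway calls ranged from 16 to 25, from 18 to 27 and stayed at 0. The highest member counts, 19 and 14, came without vehicle library 2, and the 14 also without cisplatin library 3. Each of these fits held 1 library fewer, and the causes of the ranges were not tested. Under library totals alone the change turned positive for Osmr (0.000293), Jak2 (0.0862), Socs5 (0.0849) and Irak1 (0.0435) with oxaliplatin and for Socs5 (0.104) and Irak1 (0.119) with cisplatin, none of them called. Of 55 single calls followed through up to 17 alternatives, 822 refits kept the call, 107 lost it and 6 turned sign.

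With a replicate block 15 members were called for cisplatin (Il17rb and Il18bp lost, Il1rap gained), 11 for oxaliplatin (Il7 gained) and 0 between the drugs, and 22, 23 and 0 pathway genes. Correlations of same-numbered libraries' deviations ran from -0.141 to 0.105, so the numbers were not taken as pairs. DESeq2 called 14, 11 and 0 members, and no count filter gave 17, 13 and 0. Depth limits the 34 members at the floor or below the filter, whose changes could not be told at 22819185 to 38808509 gene reads per library.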
